A study of Mus musculus with 8 samples.

Results

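The clustered protocadherins of the mouse were examined in lumbar spinal cord. These are the cadherin-family genes of the alpha, beta and gamma clusters, taken from the count table by their symbols. The rule found 57 of the 55291 genes in the table, with 13 in the alpha cluster, 22 in the beta cluster and 22 in the gamma cluster. All lie on chromosome 18 (build GRCm38, GENCODE M21 annotation, which also gave the exon lengths used below, whereas the counts were made with a later GENCODE release). The alpha cluster runs from the start of Pcdha1 at base 36930184 to the end of Pcdhac2 at base 37187657, the beta cluster from Pcdhb1 at 37264938 to Pcdhb22 at 37524479, and the gamma cluster from Pcdhga1 at 37661793 to Pcdhgc5 at 37841873.

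Clustered protocadherins are cell surface proteins that bind identical partners on neighbouring membranes. Each neuron uses its own combination of alternate first exons, chosen promoter by promoter through the insulator protein CTCF, cohesin and DNA methylation, and the resulting surface identity serves in self-avoidance of neurites and in neuronal survival. The C-type members (Pcdhac1, Pcdhac2, Pcdhgc3, Pcdhgc4 and Pcdhgc5) sit at the ends of the alpha and gamma clusters and are used more widely across cells than the alternate members. In the spinal cord the gamma cluster is known for the survival of interneurons, and Pcdhgc4 for much of that role.

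Bulk poly(A) RNA was sequenced from the lumbar spinal cord of 8 male C57BL/6J mice carrying the SOD1G93A transgene, a model of amyotrophic lateral sclerosis. The question was whether deletion of Ager, which encodes the receptor RAGE, in Cx3cr1-expressing cells such as microglia changed gene expression. The 4 Ager-deleted mice were SOD1G93A Ager fl/fl Cx3cr1 Cre/+ and are named E1776, E5231, E5248 and E5568. The 4 Cre-expressing controls were SOD1G93A Ager+/+ Cx3cr1 Cre/+ and are named E5386, E5642, E6578 and E6732. All 8 mice thus carried the SOD1G93A transgene, a tamoxifen-inducible Cre driven by the Cx3cr1 gene in place of one of its alleles, and the tamoxifen itself. Per the labels, tamoxifen was given as 5 daily injections of 0.2 μg at 12 weeks, also stated as 3 months, and tissue was taken at 120 days. The study's own text also gives 3 months for tamoxifen, on a day later than 12 weeks, but places this sampling at end-stage disease. The disease stage behind the values is therefore not settled here. Mice without the transgene, Cre or tamoxifen are not analysed here, and the effects of these 3 shared factors cannot be told apart.

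The libraries held 31148047 to 40324897 counts. Ager stood between 0.889 and 1.51 CPM, the TMM-scaled count relative to the library size, in the Ager-deleted mice and between 1.53 and 2.41 in the controls, with no overlap (log2 fold change −0.81, SE 0.22, adjusted p = 0.252 in the edgeR exact test). Neuronal, astrocyte, oligodendrocyte and microglial marker genes were present in every mouse. Markers of skeletal muscle summed to 875 CPM in control E5386 and 1381 in control E5642, against 6.76 to 24.0 in the other 6 mice. Liver markers summed to 598 CPM in control E6732 against at most 2.58 elsewhere, adipocyte markers to 134 in E5386 against at most 6.92, and Schwann cell markers to 98.0 in E5386 against 335 to 981. None of these lists includes a protocadherin, and their part in the results was not tested. In bulk tissue, fewer cells of a type and less RNA per cell cannot be told apart.

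Clustered protocadherins were a small part of the RNA. Together the 57 genes received 13525 to 19207 counts per mouse, or 0.0407 to 0.0485% of all counts. Of these genes 54 passed the filter on low counts and entered the tests. Pcdha4 (1 to 9 counts), Pcdhb1 (2 to 11 counts) and Pcdhga10 (3 to 14 counts) did not, and each stood near the floor of 3 counts, which equalled 0.0729 to 0.0975 CPM. Alpha and gamma genes share their last exons with the rest of their cluster, and the counts of a gene therefore come mainly from the exon that it has to itself. Levels between genes were for that reason compared as CPM per kilobase of this private exon sequence (level per kb), as means of 8 mice with their SD.

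By level per kb, the gamma cluster stood highest and its C-type gene Pcdhgc3 led it. The median was 3.80 over the 22 gamma genes, 1.14 over the 22 beta genes and 0.777 over the 13 alpha genes. With all exons of a gene as the length, the gamma median was 1.99 and the alpha median 0.343, and the order of the 3 clusters was the same.

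**Figure D1:**
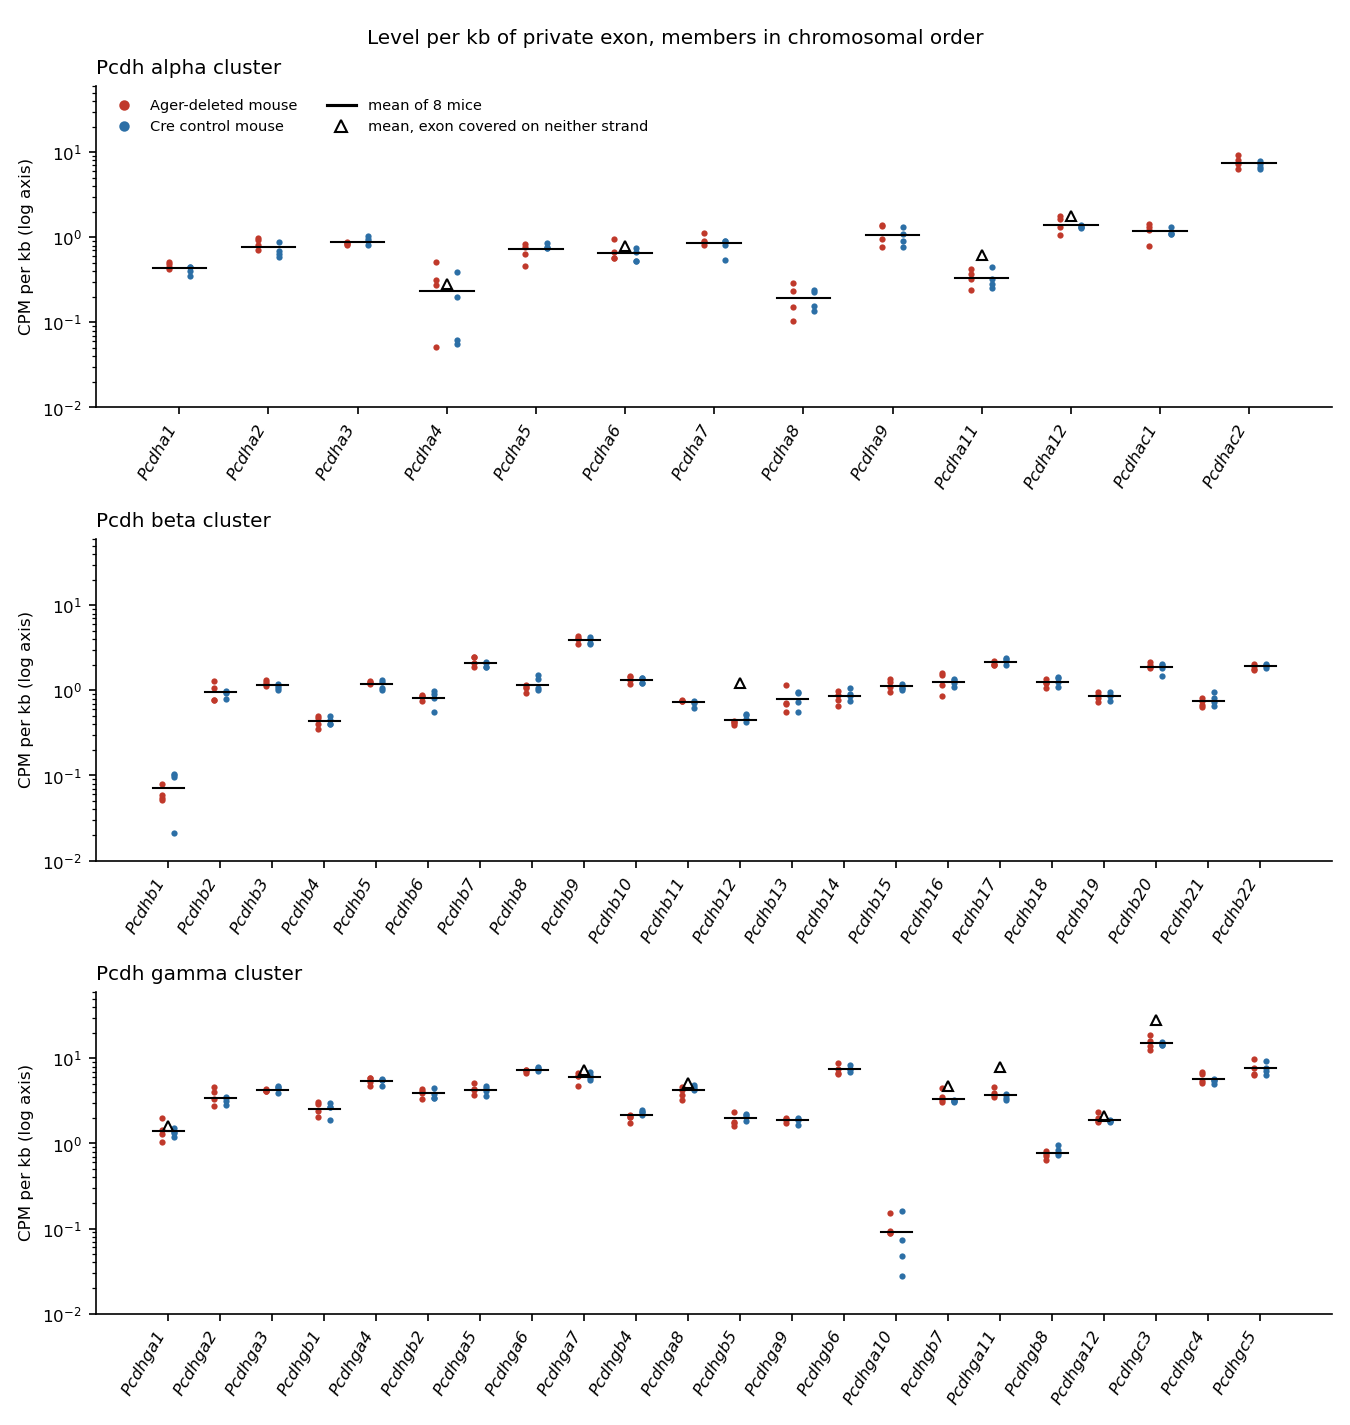
Level per kb (CPM per kb of private exon, log axis) of all 57 clustered protocadherins in chromosomal order. Points are mice, bars are means of 8 mice, and open triangles give the mean when exon sequence covered by genes on the opposite strand is also left out of the length. Pcdhgc3 had the highest mean at 15.1, and Pcdhb1 the lowest at 0.0707.

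Pcdhgc3 led all members, and 3 other C-type genes stood near the top among alternate genes of similar level. Pcdhgc3 stood at 15.1 ± 1.93 (SD, n = 8), Pcdhgc5 at 7.61 ± 1.29, Pcdhac2 at 7.42 ± 1.02 and Pcdhgc4 at 5.72 ± 0.674. Pcdhgc5, Pcdhac2 and the alternate genes Pcdhgb6 (7.51 ± 0.810) and Pcdhga6 (7.32 ± 0.383) could not be ordered against each other beyond their spread. On this length the same held for Pcdhgc4 and the alternate genes Pcdhga7 (6.08 ± 0.722) and Pcdhga4 (5.41 ± 0.490). Pcdhac1, the other alpha C-type gene, was lower at 1.18 ± 0.199, within the spread of the alternate alpha gene Pcdha12 at 1.39 ± 0.218. With exon sequence under opposite-strand genes also left out of the length, Pcdha12 rose to 1.77 and Pcdhac1 stayed at 1.18. The 5 C-type genes together made up 28.1 to 31.5% of the summed CPM of all 57. The place of Pcdhgc3 held on the other length as well: counting only exon sequence free on both strands raised it to 28.0. This setting also raised Pcdhga11 from 3.74 to 7.86 and Pcdhga7 from 6.08 to 7.35, while Pcdhgc4 stayed at 5.72. The order below Pcdhgc3 therefore depended on the length used.

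In the beta cluster, whose genes are single exons with no shared last exon, Pcdhb9 was highest at 3.91 ± 0.320, followed by Pcdhb17 at 2.15 ± 0.163 and Pcdhb7 at 2.12 ± 0.239. Pcdhb1 was at 0.0707 ± 0.0289. In the alpha cluster the lowest tested gene was Pcdha8 at 0.193 ± 0.0648, and its counts ran from 9 to 28. Pcdhga10 stood at 0.0913 ± 0.0461 and Pcdha4 at 0.233 ± 0.172. For these last 2 genes the count is limited by the annotation: the whole private exon of Pcdhga10 lies under exons of Gm26672 on the opposite strand, and all but 494 of the 5768 exon bases of Pcdha4 are shared with other genes. Across the table, 25 of 25 protein-coding genes with a private exon wholly under opposite-strand exons had fewer than 20 counts in every mouse, against 27.11% of 19070 genes with under 10% so covered, and the low counts of Pcdhga10 therefore do not show a low level. Members also resemble each other in sequence. The share of 50-base words of the first exon found in another member was 23.7% in Pcdha7. It was 0% in the C-type genes and also in Pcdhb1, Pcdhga1, Pcdhga7, Pcdhga11 and Pcdhga12. In Pcdhga4 it was 42.8%, shared mostly with Pcdhgb1. Only 1570 of the 2608 first-exon bases of Pcdhga4 are private, and its share therefore includes bases annotated to more than a single gene.

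Summed by cluster, the levels of both genotypes overlapped. The alpha genes summed to 44.6 CPM in E1776, 38.0 in E5231, 54.5 in E5248 and 49.2 in E5568, the Ager-deleted mice. The control sums were 40.4 CPM in E5386, 39.6 in E5642, 47.0 in E6578 and 45.3 in E6732, and all later values follow this order of mice. The mean was 46.6 ± 7.01 CPM (SD, n = 4) against 43.1 ± 3.65, and the lowest of all 8 mice and the highest were both Ager-deleted. For the beta genes the sums were 115, 102, 117 and 114 CPM in the Ager-deleted mice and 108, 110, 115 and 116 in the controls. Their means of 112.1 ± 6.96 and 112.3 ± 4.06 differed by less than the spread. The gamma genes summed to 328, 272, 279 and 279 CPM in the Ager-deleted mice and to 301, 277, 278 and 292 in the controls (289 ± 26.0 against 287 ± 11.7). Mouse E1776 stood apart at the top. The shares of the 3 clusters in the total ran from 8.99 to 12.1% for alpha, 23.6 to 26.2% for beta and 61.9 to 67.3% for gamma. Mice E5248, E5568 and E6578 had the 3 highest alpha shares and the 3 lowest gamma shares.

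Spread between mice was widest in the alpha cluster. Over the 8 mice, the coefficient of variation of a tested gene had a median of 17.7% in the alpha cluster (8.86 to 33.6%), 10.8% in the beta cluster (5.84 to 26.4%) and 11.9% in the gamma cluster (5.23 to 20.4%). The 13 alpha genes together held 1281 to 1931 counts a mouse, against 3540 to 4784 for the beta genes and 8539 to 12922 for the gamma genes. Within the gamma cluster, the 12 A-type genes summed to 126, 108, 119 and 119 CPM in the Ager-deleted mice and to 119, 114, 118 and 122 in the controls. The 7 B-type genes summed to 74.3, 57.2, 63.4 and 59.9 CPM against 67.3, 61.8, 61.8 and 67.8. Both sums were highest in E1776 and lowest in E5231, and the genotypes overlapped in each. The ratio of A-type to B-type counts lay between 1.69 in E1776 and 1.98 in E5568. The steadiest member was Pcdhga6, at 17.5 to 19.0 CPM under Ager deletion and 18.6 to 20.7 in the controls (log2 fold change −0.09, SE 0.07). Pcdhga2 was less even, at 8.61, 7.09, 11.8 and 10.3 CPM against 8.89, 7.38, 9.04 and 8.22 (0.18, SE 0.15). Pcdhga2 and Pcdhga6 were chosen for these sentences after their values had been seen.

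**Figure D2:**
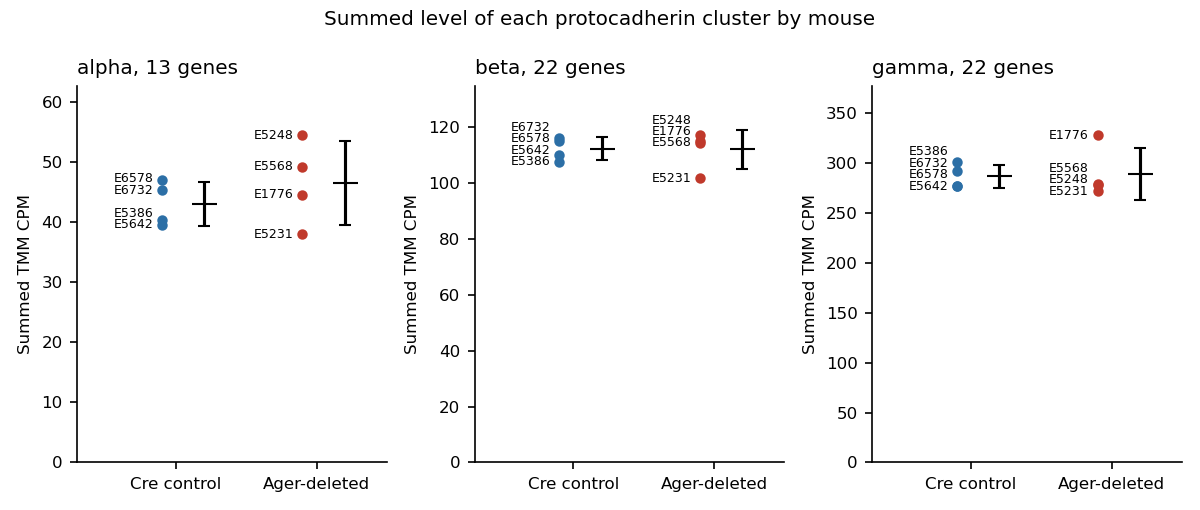
Summed TMM-normalised CPM of the alpha, beta and gamma clusters in each mouse, named by its number, with the mean and SD of 4 mice beside each group. The genotypes overlap in every cluster, and gamma in E1776 (328 CPM) is the highest value.

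No clustered protocadherin passed a test of difference between Ager-deleted mice and Cre-expressing controls. Of the 54 tested genes, 0 passed an adjusted p of 0.05 in the edgeR exact test, which called 0.0719% of the 19470 genes tested. The edgeR quasi-likelihood test called 0 members and 0.00514% of all genes. At an unadjusted p under 0.05 the count was 0 in both tests, against 4.26% and 6.71% of all tested genes, and 0 passed an adjusted p of 0.05 with DESeq2 or limma-voom. The smallest adjusted p among the members was 1 by edgeR's exact test and 0.755 by its quasi-likelihood test. The 95% intervals lay within 1 on the log2 scale for all 54 genes and within 0.5 for 39. The widest, of the low-count gene Pcdha8, ran from −0.73 to 0.79, and differences inside such an interval are not excluded by 4 mice a group. Variation between the 8 mice was moderate, with a median coefficient of variation of 12.2% over the tested members.

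**Figure D3:**
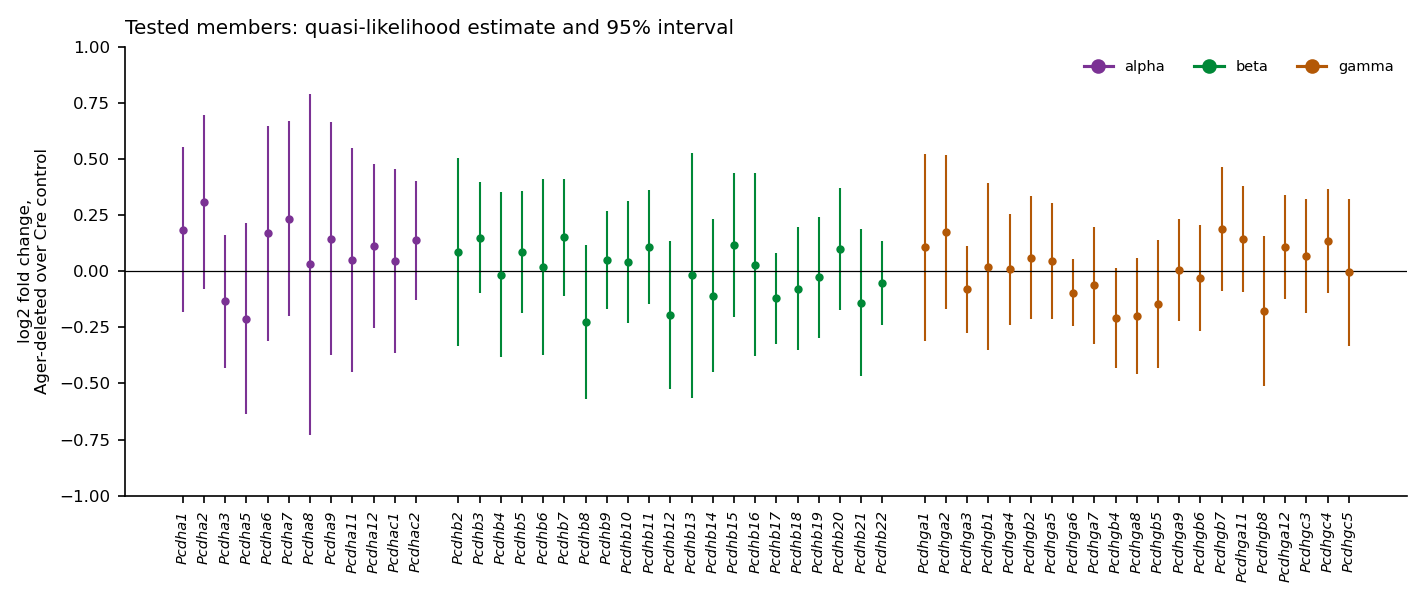
Log2 fold change of the 54 tested clustered protocadherins, Ager-deleted over Cre control, with its 95% interval from the quasi-likelihood fit. Intervals of all 54 genes cross 0, and the fold changes run from −0.23 (Pcdhb8) to 0.31 (Pcdha2).

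The median log2 fold change of the members was 0.03, beside 0.01 over all tested genes. It was 0.13 in the alpha cluster, where 10 of 12 genes had a positive value, 0.02 in the beta cluster (11 of 21) and 0.01 in the gamma cluster (12 of 21). Over all tested genes 52% had a positive value. The alpha median fell to 0.02 when both controls with skeletal muscle transcripts were left out. The neuronal marker list had a median of 0.08 with 10 of 12 values positive, and its part in the alpha values was not tested.

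Among the alternate alpha genes, Pcdha2 had the largest positive value. It stood at 2.03, 1.78, 2.43 and 2.35 CPM under Ager deletion and at 1.59, 1.73, 2.18 and 1.46 CPM in the controls. The groups overlapped because control E6578 lay within the Ager-deleted range (log2 fold change 0.31, SE 0.18, 95% interval −0.08 to 0.70). Pcdha5 had the largest negative value in the cluster, at 1.09, 1.51, 1.95 and 1.81 CPM against 1.81, 1.76, 2.02 and 1.78 (−0.21, SE 0.19). In Pcdha5 mouse E1776 was the lowest of all 8, and the fold change without it was −0.07. Pcdha12, the highest alternate alpha gene per kb, was at 3.30, 2.61, 4.04 and 4.37 CPM under Ager deletion, wider apart than the controls at 3.22 to 3.49 CPM.

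Among the beta genes, Pcdhb11 was one of only 2 members whose groups did not overlap, against 3.88% of all tested genes (1.97% higher in the Ager-deleted mice and 1.91% lower). It stood at 3.29 to 3.39 CPM (3.35 in E1776, 3.29 in E5231, 3.30 in E5248 and 3.39 in E5568) in the Ager-deleted mice and at 3.12, 3.27, 3.22 and 2.77 CPM in the controls. The gap was narrow, and the fold change was 0.11 (SE 0.11, 95% interval −0.15 to 0.36). Pcdhb8 had the largest negative fold change of the cluster, with 3.73, 3.21, 3.98 and 3.77 CPM against 3.53, 5.22, 3.67 and 4.77 (−0.23, SE 0.16). Controls E5642 and E6732 accounted for its higher control mean of 4.30. Pcdhb7 ran from 6.55 to 8.61 CPM under Ager deletion and from 6.58 to 7.55 CPM in the controls (0.15, SE 0.12). Pcdhb9 and Pcdhb17 overlapped likewise, with fold changes of 0.05 (SE 0.10) and −0.12 (SE 0.09).

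Among the alternate gamma genes, Pcdhgb4 was the second with no overlap. It stood at 7.39, 6.28, 7.68 and 7.39 CPM under Ager deletion and at 8.40, 8.31, 8.78 and 7.76 CPM in the controls. All 4 Ager-deleted values were lower than the lowest control (log2 fold change −0.21, SE 0.10, 95% interval −0.43 to 0.01, adjusted p = 0.755 in the edgeR quasi-likelihood test). Pcdhgb7 had the largest positive value, at 11.6, 8.41, 9.23 and 7.94 CPM against 7.88, 8.15, 8.16 and 8.49 (0.19, SE 0.12). Mouse E1776 again held the top value, and the fold change without it was 0.06. Pcdhgb6, among the higher alternate genes per kb, was at 16.9 to 22.9 CPM under Ager deletion and at 17.9 to 21.5 in the controls (−0.03, SE 0.11).

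Several of these genes were highest in the same mouse. Among the 54 tested members, E1776 had the highest value in 14, E5248 in 12 and E5568 in 8, while E5231 had the highest in 1 and the lowest in 18. In the gamma cluster E1776 was highest in 9 of 21 genes. Both E1776 and E5231 are Ager-deleted. The share of all tested genes that were highest or lowest in each mouse was not computed, and these counts are therefore not read as a trait of the members.

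The C-type genes overlapped between genotypes, and they split into 2 patterns between mice. Pcdhac2 stood at 22.2, 19.1, 28.0 and 24.8 CPM under Ager deletion and at 20.2, 19.1, 24.0 and 22.3 CPM in the controls (log2 fold change 0.14, SE 0.12, 95% interval −0.13 to 0.40). Pcdhgc4 stood at 18.7, 17.7, 24.0 and 22.9 CPM against 19.0, 17.5, 19.7 and 19.6 (0.14, SE 0.10). Pcdhac1 stood at 3.15, 2.02, 3.41 and 3.64 CPM against 2.76, 2.81, 3.38 and 2.89 (0.05, SE 0.18). In each of these 3 genes, mice E5248, E5568 and E6578 were the 3 highest of the 8.

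The other 2 C-type genes ran the opposite way. Pcdhgc3 stood at 64.4, 54.6, 42.3 and 47.7 CPM under Ager deletion and at 53.0, 48.7, 48.1 and 49.7 CPM in the controls (0.07, SE 0.11). Pcdhgc5 stood at 45.2, 35.1, 30.1 and 29.6 CPM against 42.6, 35.0, 29.7 and 33.0 (−0.00425, SE 0.15). Here E5248, E5568 and E6578 were the 3 lowest. The ratio of Pcdhgc3 to Pcdhac2, which does not depend on the scaling between libraries, was 2.91, 2.85, 1.51 and 1.92 in the Ager-deleted mice and 2.62, 2.55, 2.01 and 2.23 in the controls. The ratio of Pcdhgc5 to Pcdhgc4 was 2.42, 1.98, 1.25 and 1.29 against 2.24, 2.00, 1.51 and 1.69. Both ratios were lowest in E5248, E5568 and E6578. This follows from the orders of the genes given above and is no separate support for them.

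**Figure D4:**
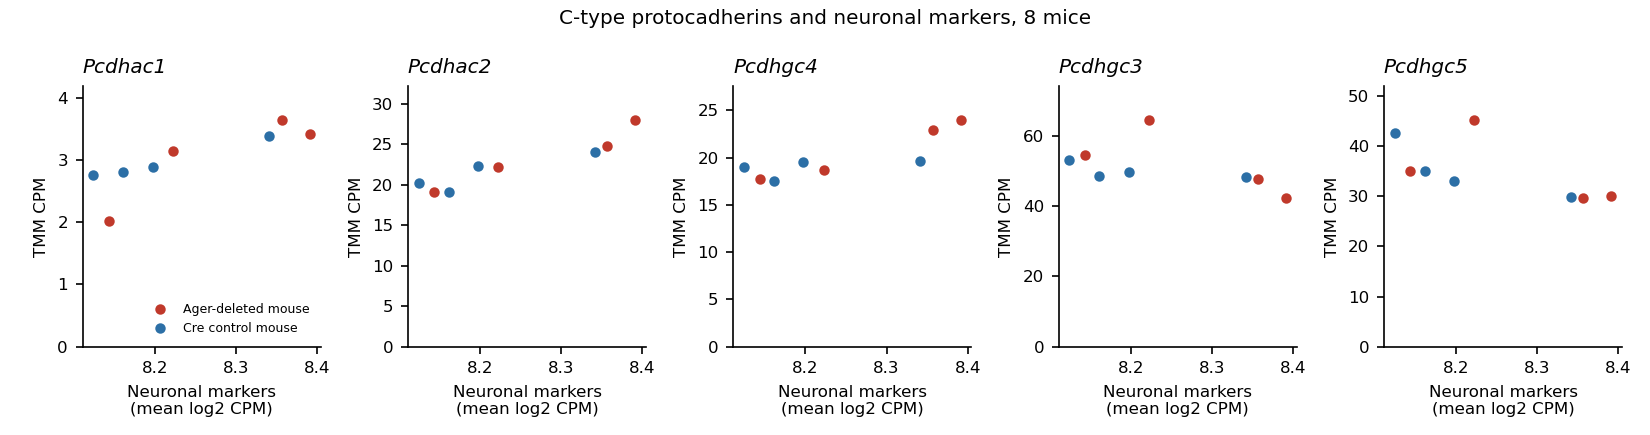
Level of the 5 C-type protocadherins (TMM-normalised CPM, axes from 0) against the mean log2 CPM of 12 neuronal marker genes in 8 mice, coloured by genotype. The 3 mice above 8.3 on the neuronal axis hold the 3 highest values of Pcdhac1, Pcdhac2 and Pcdhgc4 and the 3 lowest of Pcdhgc3 and Pcdhgc5.

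These 3 mice were also those with the highest neuronal marker levels, a mean log2 CPM of 8.34 to 8.39 over 12 genes against 8.12 to 8.22 in the other 5, with a gap of 0.12 between them. This description was chosen after the values had been seen. It followed 20 correlations of the 5 C-type genes with 4 cell type marker lists. Those with the neuronal list are not given because the mice formed these separate clusters of 3 and 5 on it. Neither cluster held enough mice for a correlation of its own. With the microglial list, r over 8 mice was −0.76 for Pcdhac1, −0.86 for Pcdhac2, −0.89 for Pcdhgc4, 0.70 for Pcdhgc3 and 0.57 for Pcdhgc5. Their adjusted permutation p ran from 0.025 to 0.18. In this order of genes, the astrocyte list gave −0.31, −0.68, −0.82, 0.66 and 0.67. The pattern was thus not particular to the neuronal list. Of the 12 neuronal marker genes themselves, 4 had these 3 mice as the 3 highest. Of all tested genes, 7.88% had these 3 mice at one end of the order, as did 3 of the 49 tested members that are not C-type (Pcdha2, Pcdha5 and Pcdhga2, all highest) and 0 of 10 delta protocadherins. The count for the C-type genes was 5 of 5 under the main normalisation, 4 with upper quartile scaling and 3 with library size alone. On the same measure, astrocyte markers stood at 9.73 in E5248, 9.77 in E5568 and 9.96 in E6578, against 9.80 to 10.01 in the others. Microglial markers stood at 6.06, 6.25 and 6.51 against 6.39 to 6.75. E6578 thus lay within the range of the others on both lists. Motor neuron markers (7 genes) did not follow the neuronal list. Their mean log2 CPM was 3.08 in E5248, 2.66 in E5568 and 3.35 in E6578, against 2.79 to 3.30 in the others. The part of cell type content in the C-type values was not tested.

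The genes around the clustered protocadherins were described from lists written by hand. The 10 delta protocadherins, non-clustered relatives that act as single adhesion genes, all entered the tests and 0 had an unadjusted p under 0.05 in the exact test. Their median log2 fold change was 0.02. Pcdh9 was highest at a level per kb of 22.9, and Pcdh8 had the smallest p, at 9.41 to 11.1 CPM under Ager deletion against 8.45 to 9.60 in the controls (0.16, SE 0.09).

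Of 25 genes tied to promoter choice, which include CTCF, cohesin and its loaders and DNA methylation enzymes, 2 had an unadjusted p under 0.05 in the exact test, both lower in the Ager-deleted mice, and 0 passed after adjustment. This compares with 4.26% of all tested genes. The quasi-likelihood test gave 3 at that level, against 6.71% of all genes, the third being Trim28, a corepressor (0.12, SE 0.05). Stag2, a cohesin subunit, stood at 76.4, 77.6, 93.6 and 85.5 CPM against 91.9, 110, 99.3 and 103 (log2 fold change −0.28, SE 0.08, adjusted p = 0.569 in the edgeR exact test). Its groups overlapped only through E5248 and E5386. Wapl, which releases cohesin from chromatin, stood at 59.7, 59.4, 67.5 and 61.1 CPM against 67.7, 73.1, 70.0 and 72.4 with no overlap (−0.19, SE 0.06, adjusted p = 1 in the edgeR exact test). Wiz, a zinc finger protein, also had no overlap, and was higher in the Ager-deleted mice at 42.2 to 45.2 CPM against 38.1 to 42.0 (0.08, SE 0.06). The cohesin subunit Rad21 was highest per kb, at 35.0, and Ctcf itself had a fold change of −0.06 (SE 0.05). Of 21 binding partners and processing enzymes, 0 had an unadjusted p under 0.05 in the exact test and 2, both lower, in the quasi-likelihood test (Adam10 and Abi1), in which 6.71% of all tested genes had such a p. Adam10, a protease that sheds protocadherin ectodomains, had the smallest p, at 98.8 to 122 CPM against 114 to 132 (−0.18, SE 0.08). Ctnnb1, beta-catenin, was highest per kb at 84.7.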

How the data were processed

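Polyadenylated RNA of lumbar spinal cord was sequenced in 8 mice. Reads were trimmed, aligned to mm10 and counted per gene by the authors, whose processing notes name Trimmomatic 0.36, STAR 2.7.3a, SAMtools and featureCounts of Subread 1.6.3. Per the study's methods the gene models were a later GENCODE release than the M21 models used here for lengths. The deposited counts are raw read counts per gene. The deposited log2 values were normalised by the authors with edgeR and were used only as a check on the normalisation. Groups came from sample titles. The study's methods give TruSeq Stranded libraries, but the strand setting of the counting is not given in the sources used here.

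Counts were scaled by TMM and filtered by filterByExpr (minimum 10 counts) in edgeR 4.0.16, and 19470 genes were tested by the exact test with Benjamini-Hochberg adjustment (threshold 0.05), with the quasi-likelihood test beside it for SE and 95% intervals. DESeq2 1.42.0 and limma 3.58.1 were alternatives. Both edgeR tests were tested on simulated data, where the exact test recovered 196 of 200 genes changed by 1.5 on the log2 scale with 36 false calls among 19276 genes, and the quasi-likelihood test 194 of 200 with 12. The fold changes of the members ran only from −0.23 to 0.31, and recovery of changes of that size was not simulated. Named genes were the 3 highest and the lowest member of each cluster per kb, the C-type genes, Pcdhb1, members with groups that did not overlap, and the largest fold change in each direction of each cluster. The members and lists were chosen with earlier results of these data known. The SD measures the spread between mice, over all 8 for levels per kb and over 4 for genotype means. The p-values compare the genotypes, with 4 mice each, and rest on these 8 mice alone.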

Additional observations from a re-analysis of the deposited data

Results flagged for a closer look

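The summed level of the gamma cluster in Ager-deleted mouse E1776 stood far from the other 3 of its group, at 328 CPM against 272 to 279 CPM. The gap divided by the range of the group was 0.879, above the 95% critical value of Dixon for 4 samples. Of 114 such checks, this 1 passed, and chance alone passes about 1 in 20.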

How the results depend on the processing

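No clustered protocadherin was called in any alternative, by the exact test in 16 settings, by the 3 other tests (quasi-likelihood, DESeq2 and limma-voom) or by the quasi-likelihood test in 15 settings, and 0 had an unadjusted p under 0.05 in the same 16 settings of the exact test or by the 3 other tests. No paired analysis was possible because the labels carry mouse numbers and no shared replicate numbers. Over all genes the count called moved, from 14 to 5 with a minimum of 50 counts, 78 with common and tagwise dispersions, 1 with the quasi-likelihood test, 27 with DESeq2, 1 with limma-voom, 9 without skeletal muscle genes and 67 without both controls with muscle transcripts, an alternative added after seeing the data. Leaving out each mouse gave 3 to 98 genes, with 3 without E5231, 53 without E5248, 8 without E5568, 72 without E5386, 8 without E5642, 98 without E6578 and 89 without E6732. Members whose groups did not overlap numbered 2, and 1 with RLE scaling (1.85% of the members, against 3.84% of all genes). They numbered 8 without both muscle controls, where 14.8% of the members and 12.9% of all genes did not overlap, since smaller groups overlap less. Leaving out each mouse gave 1 to 4 members, with 4 without E6578 (7.41% against 7.57% of all genes) and 1 without E6732 (1.85% against 5.86%). The median level per kb became 0.343 in alpha and 1.99 in gamma over all exons, and 4.30 in gamma on either strand, a length added after seeing the data. The 5 C-type genes with E5248, E5568 and E6578 at one end of the order became 3 with library size alone, also examined after seeing the data. Of 17 named members tested, 14 had fold changes that moved by over 1.5 times or changed sign when 1 mouse was left out; the others were Pcdha2, Pcdhb17 and Pcdhgb4. Over all settings 5 changed sign. Pcdha8 (0.03) became −0.0400 with limma-voom and −0.22 to 0.23 leaving out each mouse. Pcdhac1 (0.05) became −0.0407 without both muscle controls and −0.0475 to 0.20 leaving out each mouse. Pcdhgb6 (−0.03) gave −0.13 to 0.0238, and Pcdhgc3 (0.07) gave −0.0499 to 0.16 leaving out each mouse. Pcdhgc5 (−0.00425) became 0.0190 with library size alone and 0.15 without both muscle controls, and −0.15 to 0.10 leaving out each mouse. Leaving out each mouse moved the beta and gamma medians across 0, at −0.02 to 0.06 and −0.05 to 0.04, while the alpha median stayed at 0.05 to 0.22. The causes were not tested.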
